A study of Mus musculus with 12 samples.

Results

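IGHV4-1 is the mouse immunoglobulin heavy chain V gene used by the IgA clone of the myeloma line VQ-D2, and the sequences described here are those assigned to it. They were chosen by the first V gene named for a clonotype in the deposited clone tables, and by the first V gene named for an aligned sequence with at least 50 V bases. The rule found 4 of the 16 heavy chain clonotypes and 26000 of the 60891 aligned heavy chain rows (53453 of these rows had at least 50 V bases). By library, 25915 of the aligned sequences were from VQ-D2, 71 from 4938, 11 from 4935, 3 from VQ-D5, and 0 from VQ-D1 and VQ-D4. These counts follow from the rule and are a description.

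Heavy chain transcripts were sequenced from CD138+B220- myeloma cells of mouse bone marrow, with 1 heavy chain library for each of 6 lines. All lines shared the VQ genotype, which joins a Vκ*MYC transgene, an NrasLSL allele with Q61R/+ and IgG1-Cre. The primary donor lines were VQ-D2, VQ-D5, VQ-D1 and VQ-D4, while 4935 and 4938 were cell lines derived from recipient mice of VQ-D2. Nothing in the labels says how many animals stand behind a library, or that 4935 and 4938 are independent of each other. In this model MYC is placed under kappa light chain control elements, the Nras allele is silent until Cre removes a stop cassette, and Cre is expressed with IgG1, so the activated allele is limited to cells that have expressed Cre. The libraries hold receptor transcripts alone, so the labelled cell type could not be set against its markers.

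A heavy chain variable domain is encoded by a V, a D and a J segment joined once in a developing B cell, and the joint forms CDR3, the loop that marks all descendants of that cell. After antigen contact, activation-induced deaminase introduces further base changes into the rearranged V segment, and class switching replaces the constant region, here by IgA. Plasma cells secrete the antibody and are the cells from which myeloma arises. Framework regions (FWR) carry the fold of the domain, and the CDR loops contact antigen.

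The germline allele and the clone are shown first because every result turns on the bases by which they differ. IGHV4-1 lies at chr12:113948284-113948577 in the RefSeq gene table of GRCm38.p6 (mm10), where it is a V segment. The germline bases are those of the deposited germline alignments, the clone bases are the most frequent bases of the VQ-D2 sequences, and both run 5′ to 3′ from V position 1 to 285. Capitals mark the 9 positions at which they differ.

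germline IGHV4-1: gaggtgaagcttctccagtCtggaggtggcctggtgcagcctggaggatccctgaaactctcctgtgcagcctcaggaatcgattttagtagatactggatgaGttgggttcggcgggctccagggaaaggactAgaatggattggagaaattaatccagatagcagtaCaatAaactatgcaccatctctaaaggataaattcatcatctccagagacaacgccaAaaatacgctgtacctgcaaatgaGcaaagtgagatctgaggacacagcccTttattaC
VQ-D2 clone: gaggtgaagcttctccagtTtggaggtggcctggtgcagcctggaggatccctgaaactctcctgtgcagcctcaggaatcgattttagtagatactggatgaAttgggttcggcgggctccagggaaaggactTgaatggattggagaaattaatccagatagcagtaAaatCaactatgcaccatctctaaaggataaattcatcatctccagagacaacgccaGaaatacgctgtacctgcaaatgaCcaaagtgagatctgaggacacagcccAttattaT
clone CDR3: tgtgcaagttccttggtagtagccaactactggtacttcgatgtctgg

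The CDR3, taken as in the clone tables from its first cysteine to its last tryptophan codon, follows V position 285 directly and is shown because it identifies the clone in every library. Its 48 bases (16 codons) were the same in all 4 clone tables that hold an IGHV4-1 clonotype. According to the alignment columns of those tables, the first 11 bases come from the V gene with a single mismatch, A9T counted from the first CDR3 base. Next came 3 bases between V and D, 9 bases of IGHD1-1, 3 bases between D and J, and 22 bases of IGHJ1, with 0 mismatches in the D and J stretches. V bases 1 to 285 and the CDR3 together form an open reading frame of 333 bases with 0 stop codons. All 4 clonotypes were assigned to IGHA, the constant gene of IgA.

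In the clone tables the IGHV4-1 clonotype took 2568 of 2568 counts in VQ-D2 (100%, exact 95% interval 99.9% to 100%), 411 of 411 in 4935 (99.1% to 100%) and 373 of 373 in 4938 (99.02% to 100%). It had 1 of 2181 counts in VQ-D5 (0.0459%, interval 0.00116% to 0.255%), which is the trace taken up again after the other libraries. VQ-D4 had 0 of 1277 counts, which allows a share of up to 0.235%. VQ-D1 had 0 of 4602 counts, which sets no limit on an IgA clone, because that table names only IGHG2B as constant gene and the sources used here do not give the primers. The VQ-D2 clone is therefore the sole clonotype in its own library and in those of its derived lines. In such bulk libraries fewer cells of a clone and less transcript per cell cannot be told apart. Intervals and limits here cover counting error only, since amplified copies are not independent molecules.

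In the aligned tables the picture was the same over far more VQ-D2 sequences, among rows with at least 50 V bases. Such rows were 25919 of 27215 in VQ-D2, but only 72 of 826 in 4938 and 12 of 294 in 4935. IGHV4-1 had 25915 of 25919 sequences with at least 50 V bases in VQ-D2 (99.98%, interval 99.96% to 100%), 71 of 72 in 4938 (98.6%, 92.5% to 99.96%) and 11 of 12 in 4935 (91.7%, 61.5% to 99.8%). The 4 VQ-D2 sequences outside it were assigned to 4 other V genes with 1 sequence each. VQ-D5 had 3 of 22317 (0.0134%, 0.00277% to 0.0393%). VQ-D4 had 0 of 277, which allows up to 1.08%, and VQ-D1 had 0 of 4856. At the length limit of the rule, the longest VQ-D2 sequences left out had 48 V bases (2 sequences with 91.7% and 93.8% identity to germline), and the shortest one kept had 50 V bases and 88% identity. A further 207 VQ-D2 rows named IGHV4-1 with fewer V bases than the limit, as did 3 rows of 4938 and 10 of VQ-D1. The 10 VQ-D1 rows had at most 38 V bases, and the longest was 65.8% identical to germline.

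The libraries covered different parts of the V segment. A typical VQ-D2 sequence ran from V position 1 to 225 (medians), so the end of the segment rests on fewer sequences there. Those of 4938 and 4935 ran from position 123 to 293 (medians), and so held the later part of V with the CDR3. Positions near 20 and 104 were covered by few sequences of the derived lines, and none of 4935 covered position 20.

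**Figure D1:**
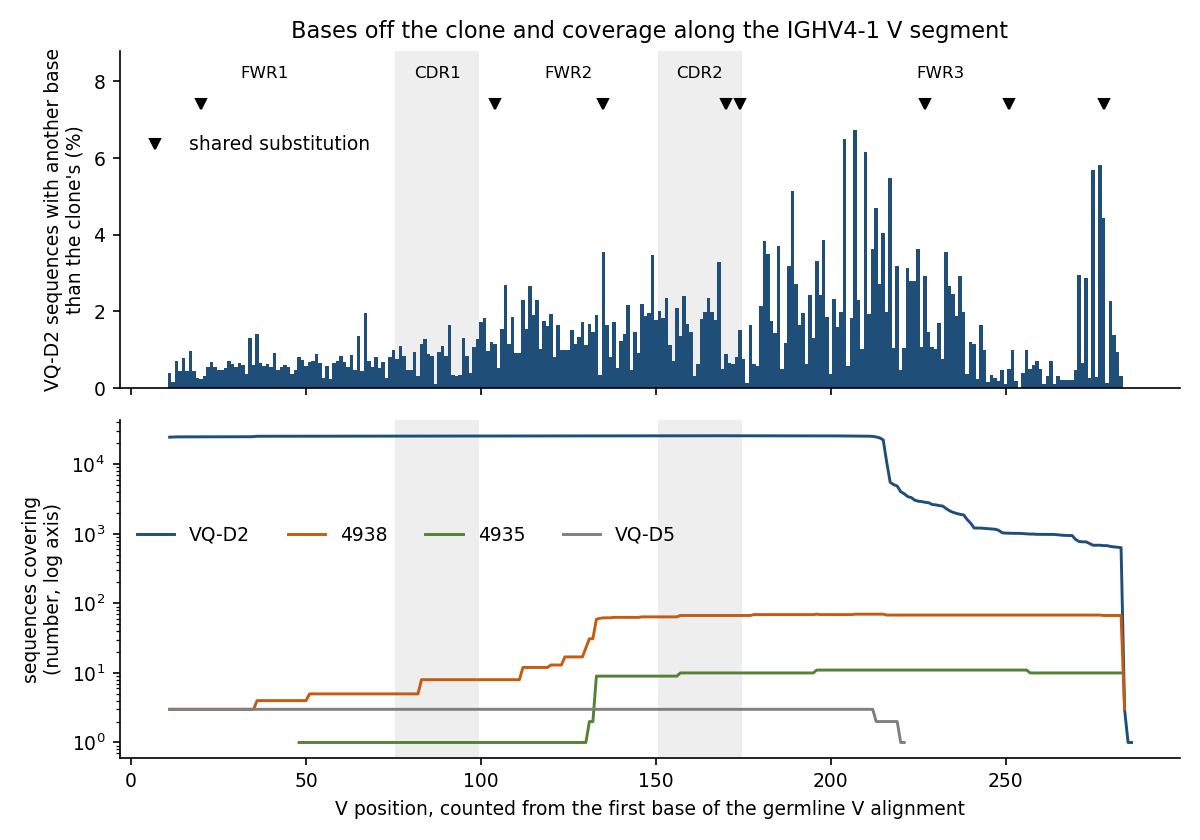
The upper panel plots, for each V position with at least 100 VQ-D2 sequences, the percentage of sequences with a base other than the clone's, and triangles mark the 8 shared substitutions. The lower panel plots on a log axis how many sequences of each library cover a position. VQ-D2 coverage is 25191 sequences at position 212 and 4046 at position 220, while 4938 and 4935 gain most of their coverage after position 130.

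A shared substitution was a base other than germline in at least 50% of the VQ-D2 sequences that read a position, where 5 or more sequences had to do so, and 10 bases were dropped from each alignment end. By this rule 8 of 273 positions (2.93%) were shared, between positions 11 and 283. Of these 8, 6 replaced an amino acid and 2 were silent, 3 were transitions and 5 transversions, and 2 lay in a CDR (48 bases) and 6 in framework (240 bases). None lay in CDR1. Region borders are those given with the aligned sequences (CDR1 76 to 99, CDR2 151 to 174), and other definitions of a CDR could change this tally. Residues are numbered from the first codon of the V segment, which is not a standard antibody numbering.

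C20T replaced serine by phenylalanine (S7F) in FWR1, the strand at the amino end of the domain. It was carried by 24761 of 24823 covering sequences in VQ-D2 (99.8%, interval 99.7% to 99.8%), by 3 of 3 in 4938 and by 3 of 3 in VQ-D5. G104A replaced serine by asparagine (S35N) at the start of FWR2, beside CDR1. It was carried by 25199 of 25491 sequences in VQ-D2 (98.9%, 98.7% to 98.98%), by 8 of 8 in 4938, by 1 of 1 in 4935 and by 3 of 3 in VQ-D5. That single 4935 sequence had 21 V bases other than the clone's and held the clone CDR3 on neither strand. A135T was silent at leucine 45 (L45L) and had the greatest number of sequences with a different base. In VQ-D2 24746 of 25655 sequences carried it (96.5%, 96.2% to 96.7%), as did 61 of 62 in 4938 (98.4%, 91.3% to 99.96%), 9 of 9 in 4935 and 2 of 3 in VQ-D5.

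Both CDR changes lay in CDR2. C170A replaced threonine by lysine (T57K) and was in 25462 of 25694 VQ-D2 sequences (99.1%, 99.0% to 99.2%), in 67 of 67 of 4938, 10 of 10 of 4935 and 3 of 3 of VQ-D5. A174C was silent at isoleucine 58 (I58I), the last codon of CDR2. It was in 25307 of 25696 VQ-D2 sequences (98.5%, 98.3% to 98.6%), and again in 67 of 67, 10 of 10 and 3 of 3 in the other libraries. T57K was thus the only replacement by a shared substitution within CDR1 or CDR2, and it introduces a positively charged side chain. The V mismatch A9T within the CDR3 lies beyond the positions called here. It turns aga into agt, arginine into serine.

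FWR3, the stretch between CDR2 and CDR3, held the remaining changes, each a replacement. A227G (K76R) exchanged basic residues and was in 2756 of 2839 VQ-D2 sequences (97.1%, 96.4% to 97.7%), 67 of 68 of 4938 (98.5%, 92.1% to 99.96%) and 11 of 11 of 4935. G251C (S84T) was in 1015 of 1020 VQ-D2 sequences (99.5%, 98.9% to 99.8%), 68 of 68 of 4938 and 11 of 11 of 4935. T278A replaced leucine by histidine (L93H) near the end of FWR3 and was in 647 of 677 VQ-D2 sequences (95.6%, 93.7% to 97.0%), 67 of 67 of 4938 and 10 of 10 of 4935. At these later positions the derived lines and VQ-D2 were covered by numbers of sequences closer to each other than at positions 20 to 174.

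**Figure D2:**
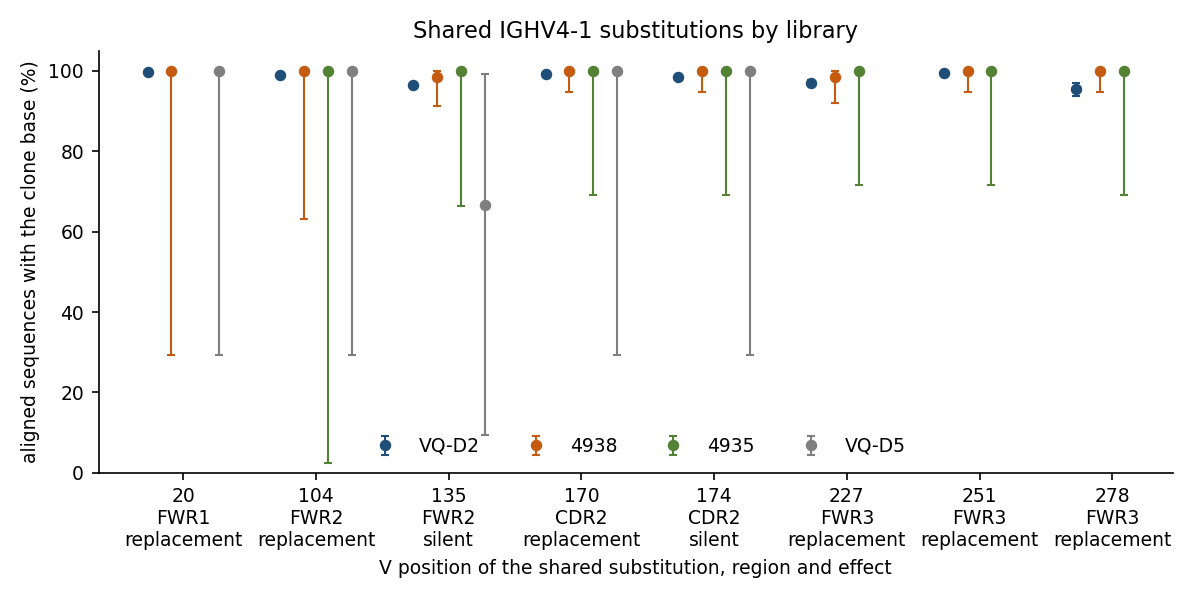
For each of the 8 shared substitutions, by V position, the points give the percentage of aligned IGHV4-1 sequences with the clone base in VQ-D2, 4938, 4935 and VQ-D5, with exact 95% intervals. Every point is above 95% except position 135 in VQ-D5, where 2 of 3 sequences carry the base, and the wide intervals belong to positions with few sequences.

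C285T, a silent change at tyrosine 95 (Y95Y) directly before the CDR3, lies within the bases left out at the alignment end. With the ends kept it was in 685 of 686 VQ-D2 sequences (99.9%, 99.2% to 99.996%). Alignment ends otherwise lowered the shares: with ends kept, A227G fell to 83.9% of 5514 sequences and T278A to 70.5% of 946, and the germline base was then in 13.9% and 29.5% of them. One VQ-D2 sequence was named for allele 02 of the gene, whose germline bases were covered from position 172 to 293. At the 5 positions of that stretch (174, 227, 251, 278 and 285) allele 02 did not have the clone base. The mouse strain's own germline sequence was not used here, so a germline difference from the reference allele would also appear as a shared substitution.

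The aligner's V stretch ends before position 278 in most VQ-D2 sequences, yet many rows hold the end of the V segment and the CDR3 on the opposite strand, ahead of the V stretch. The shares were therefore read again from exact windows of 21 bases, with the position in the centre and 10 clone bases on each side, searched on both strands of each row. T278A then had 10306 of 10307 windows in VQ-D2 (99.99%, interval 99.9% to 100%), of which 10014 were on the reverse strand, against 677 sequences from the V alignment. C285T had 10319 of 10322 (99.97%, 99.9% to 99.99%), and G251C had 2048 of 2050 (99.9%, 99.6% to 99.99%). A135T had the lowest share by this reading, with 21424 of 21901 (97.8%, 97.6% to 98.01%). Windows give higher shares in part by their construction, because a row with another change in the flanks is not counted. The windows at 278 and 285 each require the clone base at the other position, as do those at 170 and 174. A row with the germline base at both positions of such a pair is never counted. In 4938 the windows at 278 and 285 had the clone base in 65 of 65 and 64 of 64 rows, and in 4935 in 9 of 9 at both positions.

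The CDR3 was found in the same way on either strand. In VQ-D2 the exact CDR3 was on 10363 of 25915 IGHV4-1 sequences (39.99%), forward on 553 and as its reverse complement on 10101, with 291 holding both. The junction column of the aligned table gave it for 552 of them (2.13%). In 4938 it was on 64 of 71 (90.1%), with 54 forward and 25 reverse, and in 4935 on 10 of 11 (90.9%). The J column is of little use for the VQ-D2 sequences: 11563 were named for IGHJ2, from an alignment with a median of 7 bases, and 0 of these held the CDR3 forward, while the 1039 named for IGHJ1 had a median of 53 J bases. Sequences of the clone with no CDR3 in the junction column thus often carried it elsewhere on the row. Outside the IGHV4-1 sequences, the exact CDR3 was on 224 VQ-D2 rows, of which 193 were named IGHV4-1 with fewer than 50 V bases, and on 0 rows of VQ-D1, VQ-D4 and VQ-D5 (limits of 0.877% of rows in VQ-D4 and 0.0130% in VQ-D5, with none for VQ-D1).

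Linkage of the shared substitutions was read on single sequences. Among VQ-D2 sequences that covered at least 2 shared positions, 24023 of 25894 (92.8%, interval 92.5% to 93.1%) carried every shared substitution they covered, 1754 missed 1, 103 missed 2 and 14 missed at least 3. None carried 0 of those it covered. The largest class covered 5 positions, with 21339 sequences complete and 1558 missing 1. All 23 sequences that covered the 8 positions carried all 8. In 4938 69 of 71 sequences (97.2%, 90.2% to 99.7%) were complete and in 4935 11 of 11 (71.5% to 100%). The shared substitutions were thus found together on single sequences in most cases.

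The germline base was rare at most shared positions. At A135T, 45 VQ-D2 sequences had the germline A (0.175%), against 864 with another base or a deletion. At C20T the germline base was in 4 of 24823 sequences (0.0161%), at G104A in 63 (0.247%), at C170A in 41 (0.160%) and at G251C in 2 of 1020 (0.196%). A174C had the most among the well covered positions, 243 of 25696 (0.946%). At A227G it was 23 of 2839 (0.810%), and at T278A it was 30 of 677 (4.43%), a set described with the partial changes. Of the 25894 sequences, 25468 had the germline base at 0 of the shared positions they covered, 401 at 1 and 25 at 2 or more. In 4938 and 4935 it was at 0 positions in all 71 and 11 sequences with the ends left out. With the ends kept, 4938 had the germline base in 4 of 12 sequences at G104A and in 2 of 69 at both C170A and A174C, and 4935 had it in 0.

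For the 28 pairs of shared substitutions in VQ-D2, both were carried by between 88% and 100% of the sequences covering the pair, with a median of 96.3%. The lowest was the pair G104A and T278A, with 242 of 275. Phi, a correlation of carriage that is 0 when losses fall independently and 1 when they fall on the same sequences, ranged from -0.04 to 0.44 over the 26 pairs for which it could be computed on at least 100 sequences. The highest was A227G with G251C, where 2 sequences lacked both and 5 lacked 1 of them among 979. Summed over the 28 pairs, both bases were missing 145 times, against 52.2 from the product of the shares, and a single base 7951 times. Losses thus fell together more often than that product, while most fell alone. Sequences of 1 library are not replicates, so no test was applied.

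Complete carriage moved with the number of other bases off the clone on the same sequence. It was 98.6% of the 9959 VQ-D2 sequences with 0 such bases elsewhere in V (interval 98.4% to 98.9%), 96.3% of 5165 with 1 (95.8% to 96.8%), 92.2% of 6192 with 2 to 4 (91.5% to 92.8%) and 76.8% of 4578 with 5 or more (75.6% to 78.0%). What gave the other bases was not tested. Sequences with the CDR3 forward were complete in 545 of 551 cases (98.9%, 97.6% to 99.6%), those with it only in reverse in 9212 of 9810 (93.9%, 93.4% to 94.4%) and those with neither in 14266 of 15533 (91.8%, 91.4% to 92.3%). The forward set spans V from about position 120 to 293 and the other sets from 1 to about 225, so they cover different substitutions.

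**Figure D3:**
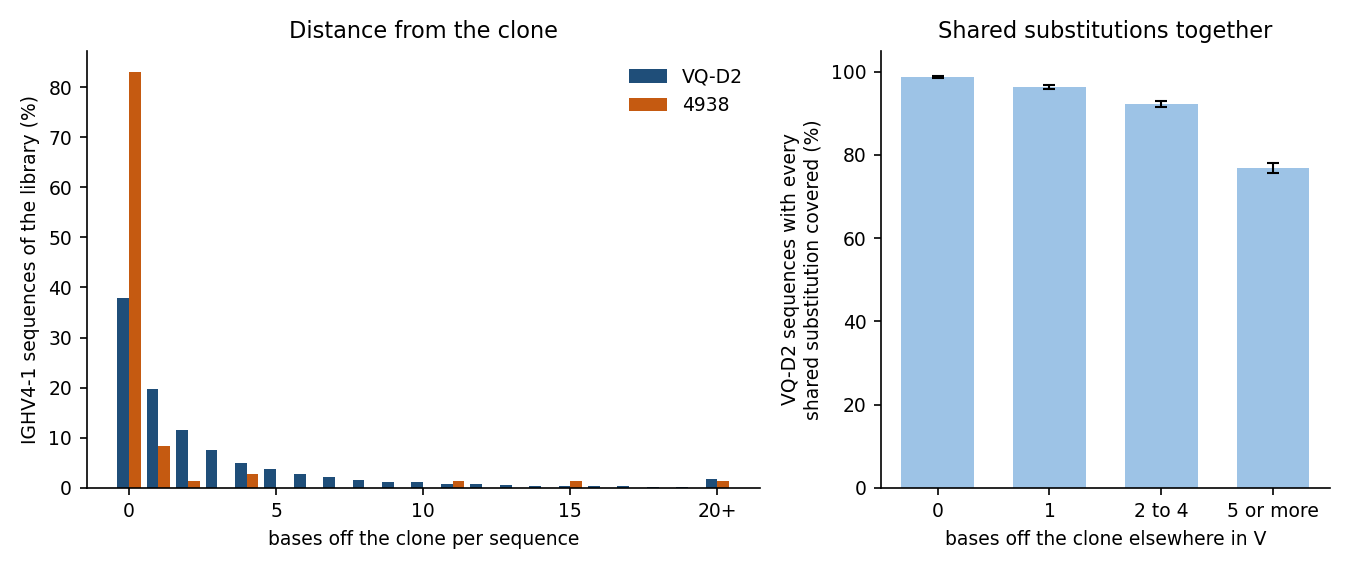
Left, the percentage of IGHV4-1 sequences by the number of V bases that differ from the clone, for VQ-D2 and 4938. Right, the percentage of VQ-D2 sequences that carry every shared substitution they cover, by the number of other bases off the clone, with exact 95% intervals; the bars fall from 98.6% to 76.8%.

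Measured against the clone rather than germline, 9840 of 25915 VQ-D2 sequences (38.0%, interval 37.4% to 38.6%) had 0 bases off the clone, 5114 had 1, 6237 had 2 to 4 and 4724 (18.2%) had 5 or more. In 4938 59 of 71 (83.1%, 72.3% to 90.95%) had 0, and in 4935 9 of 11 (81.8%, 48.2% to 97.7%). These shares are not set against each other, because VQ-D2 sequences cover more and other V bases. Per base, 1.36% of VQ-D2 bases were off the clone, 0.598% of those of 4938 and 1.35% of those of 4935. In 4935 1 sequence held 21 of the 22 such bases. In 4938 3 sequences had 5 or more, and 1 of these held 24 of the 66 in the library. The values per base also cover different V positions and are not set against each other. The VQ-D2 sequences had 13952 distinct V alignments, 12889 of them seen once, and the most frequent held 3405 sequences (13.1%).

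Bases off the clone rose along the sequence in VQ-D2. The median over positions was 0.604% from position 11 to 80, 1.16% from 81 to 140, 1.58% from 141 to 180 and 2.31% from 181 to 220. It was 0.757% from 221 to 283, where few sequences reach. Over all 273 positions the median was 0.983%. CDR1 had a median of 0.834% and CDR2 of 1.59%, against 0.592% in FWR1, 1.54% in FWR2 and 1.31% in FWR3. By medians each CDR lay at or above the framework stretch ahead of it, but by pooled values CDR2 lay below FWR2. Region and position along V cannot be told apart in these values. In 4938, pooled over positions with at least 5 sequences, 7.2% of bases were off the clone in FWR1 and 4.68% in CDR1, where 5 to 8 sequences cover a position. At each FWR1 position off the clone, this was 1 of 5 sequences. The pooled values were 0.833% in FWR2, 0.252% in CDR2 and 0.429% in FWR3, and in VQ-D2 0.643%, 0.818%, 1.54%, 1.51% and 2.38% from FWR1 to FWR3.

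Partial substitutions were base changes found in 5% to under 50% of VQ-D2 sequences, at positions read by at least 100 of them. There were 2, C275G (A92G) and C277G (L93V), each in 36 of 686 sequences (5.25%, interval 3.70% to 7.19%), and 0 reached 10%. Residue changes of partial substitutions are those of each change alone in the germline codon. L93V is thus read without T278A, which lies in the same codon. Neither C275G nor C277G was in any of the 68 sequences of 4938 or the 10 of 4935 that covered these positions. In VQ-D2 itself, 0 of the 533 covering sequences that began after V position 32 had either change. Sequences of 4938 and 4935 began at a median of position 123, so their counts of 0 are not read as a difference from VQ-D2. From 2% there were 27 base changes, of which 26 lay at position 141 or later, and from 1% there were 101. A135C was the only one of the 27 at a shared position.

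The next 10 by share were C207A in 4.94% of 25469 sequences (4.68% to 5.22%), T189C in 4.81% of 25665, C210T in 4.21% of 25436, C204G in 4.08% of 25535, G217A in 3.69% of 5495, C213A in 3.53% of 24706, A135C in 3.25% of 25655, T168C in 2.92% of 25721, C182A in 2.83% of 25687 and A273T in 2.74% of 767. Of these 10, C204G (F68L), G217A (D73N) and C182A (A61E) replace a residue and the others are silent. T168C lies in CDR2, A135C in FWR2 and the rest in FWR3. In 4938, C204G was in 2 of 69 sequences, T189C in 1 of 69, C210T in 1 of 70, A135C in 1 of 62 and T168C in 1 of 67, and the others were in 0. A273T was also in 0 of the 538 covering VQ-D2 sequences that began after V position 32.

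Partial changes shared sequences more often than the product of their shares gives, but few of their carriers held both. Among the pairs of the 27 changes from 2%, 171 had a product of at least 5 sequences. In 152 of these 171 more sequences than that held both, with a median ratio of 4.20. For C207A and A208G 216 sequences had both against a product of 28.3, which is 37.8% of the carriers of A208G and the highest such share. Over sequences with at most 4 bases off the clone the ratio had a median of 2.52, and 142 of the 171 pairs lay above the product. Changes off the clone thus gathered on some sequences, and what gave this was not tested. Phi could be computed for 307 pairs, with a median of 0.08. Only 2 pairs reached 0.5, A271T with A273T (0.82, with both on 16 of 767 sequences) and C275G with C277G (0.71, with both on 26 of 686). The next pair stood at 0.40, and of the 175 pairs at least 30 bases apart the highest was 0.19. Of these distant pairs, 49 had a product of at least 5 sequences, and C182A with C213A had the highest share of the rarer change's carriers with both, 19.8%.

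The 2 linked pairs were on a distinct kind of sequence. All 36 sequences with C275G and all 36 with C277G began within V positions 1 to 32, where they made up 23.5% of the 153 sequences covering these positions, against 0 of the 533 that began later. The 21 with A271T and the 21 with A273T also all began there. The 26 sequences with both C275G and C277G carried G251C in 26 of 26 cases but T278A in only 2 of the 22 that covered it (9.09%), against 532 of 533 (99.8%) for sequences that began later. They had a median of 3 bases off the clone from position 264 to 283, where the sequences that began later had a median of 0, and 0 of the 26 held the CDR3 forward. So 20 of the 30 VQ-D2 sequences with the germline base at 278 were among these 26. What made the last bases of these sequences differ was not tested.

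The shared positions were set against the WRC motif of activation-induced deaminase, searched as AAC, AGC, TAC and TGC with the change at the last base, and on the other strand as GTT, GCT, GTA and GCA with the change at the first. In the germline V, 29 of the 273 positions (10.6%) were such a base. Among the 8 shared changes, G104A, C170A and G251C were in such motifs and the other 5 were not. C285T, which is outside the 8, was in one. A match describes the germline letters around a position and shows nothing about the enzyme.

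The derived lines were compared with VQ-D2 position by position, on the share of the most frequent non-germline base of VQ-D2. All other bases were counted together with germline. A different base gained in a derived line, at a position without a shared substitution, would therefore not be called. Fisher's exact test, two-sided and with Benjamini-Hochberg adjustment over all positions, called 0 of 232 positions against 4938 (0% called) and 0 of 150 against 4935 (0% called). At an unadjusted p under 0.05 there were 5 positions in 4938 and 0 in 4935. The lowest exact p was 0.00577 (adjusted 1) for C115T, in 2 of 12 sequences of 4938 and 0.960% of VQ-D2. The shared positions tested, 7 for 4938 and 6 for 4935, all had an adjusted exact p of 1. With a median of 67 sequences per position in 4938 and 10 in 4935, small differences in share would not be detectable. At positions without a shared substitution, even complete absence of the base from a derived line could not be called. C207A, in 4.94% of VQ-D2 sequences and 0 of 70 of 4938, had an unadjusted Fisher's exact p of 0.0504. The 0 calls therefore do not bear on a loss of partial changes, and the test compares libraries rather than lines.

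Traces of the clone in VQ-D5 were 1 count in the clone table and 3 aligned sequences. VQ-D5 has its own IgA clone, which uses IGHV3-8 (22228 of the 22314 other sequences with at least 50 V bases). With 10 bases left out at each end, the 3 sequences carried 14 of the 15 shared substitutions they covered (93.3%, exact interval 68.1% to 99.8%). The window from V position 101 to 200 shows the bases that decide this, with capitals at the shared positions 104, 135, 170 and 174.

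germline IGHV4-1, 101 to 200: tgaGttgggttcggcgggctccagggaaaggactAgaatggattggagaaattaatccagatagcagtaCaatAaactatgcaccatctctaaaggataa
VQ-D2 clone, 101 to 200: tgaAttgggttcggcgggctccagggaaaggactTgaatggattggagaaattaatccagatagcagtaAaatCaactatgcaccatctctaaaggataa
VQ-D5 sequence 1, 101 to 200: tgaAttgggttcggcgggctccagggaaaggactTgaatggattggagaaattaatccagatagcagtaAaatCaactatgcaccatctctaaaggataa
VQ-D5 sequence 2, 101 to 200: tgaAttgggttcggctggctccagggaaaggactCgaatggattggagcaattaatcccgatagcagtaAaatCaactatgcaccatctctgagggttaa

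The first VQ-D5 sequence covered V positions 1 to 231 with 97.4% identity to germline, and carried all 5 shared substitutions with ends left out and all 6 with ends kept. It held the exact CDR3 of the clone in reverse, and the windows at 278 and 285 had the clone base as well. Its V alignment was identical to that of 148 VQ-D2 sequences, and its whole row of 487 bases was identical to 95 VQ-D2 rows. The third sequence covered positions 1 to 229 with 97.4% identity, and also carried all 5 and, with ends kept, all 6. Its V alignment was identical to 376 VQ-D2 sequences and its whole row of 414 bases to 4 VQ-D2 rows. The first and the third sequence had 0 bases off the clone. In all, 182 VQ-D5 rows equalled a VQ-D2 row. Apart from these 2, the other 180 were named IGHV8-10 and had at most 28 V bases. They are therefore not comparable in V length with the first and the third sequence.

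The second VQ-D5 sequence covered positions 1 to 222 with 93.2% identity, and its V alignment was identical to that of 0 VQ-D2 sequences. It carried C20T, G104A, C170A and A174C, but A135C in place of A135T, the base that 3.25% of VQ-D2 sequences also had there. Its 10 other changes were A45T, A69T, G116T, A149C, A159C, A192G, A194G, A197T, A201C and A216G. Counting A135C, 5 of its 11 changes (A135C, A149C, A194G, A197T and A201C) were among the 27 found in at least 2% of VQ-D2 sequences. Each of the 11 was also found in VQ-D2, in between 0.319% (A69T) and 4.86% (A216G) of sequences with ends kept. The value for A216G rests on alignment ends. With 10 bases left out, the most frequent change at position 216 in VQ-D2 was A216C, at 0.955%, so A216G was no higher. Such matches are not particular to this sequence. At nearly all of the 273 V positions some VQ-D2 sequences were off the clone, with a median of 0.983%.

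**Figure D4:**
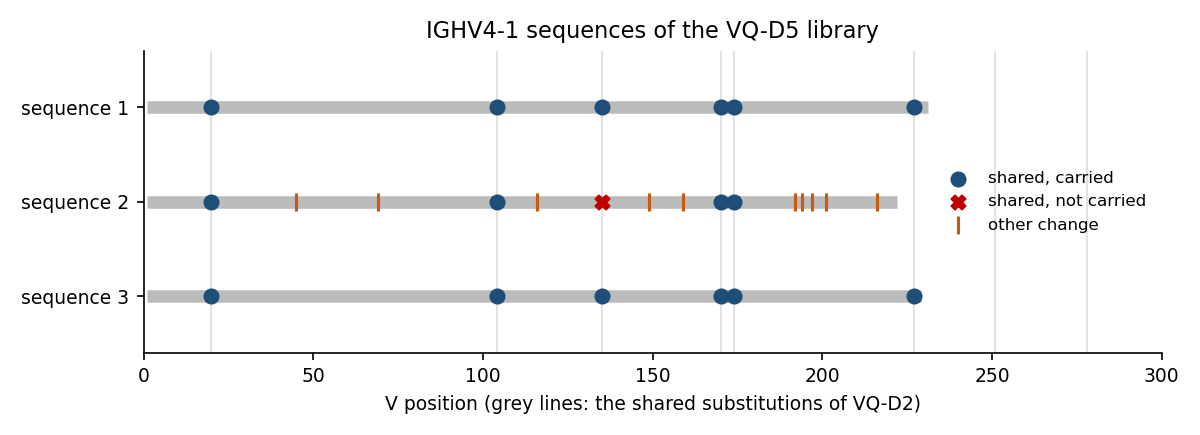
Each grey bar is the V stretch of 1 of the 3 IGHV4-1 sequences of VQ-D5 along the V position, with circles at shared substitutions carried, a cross at the one not carried and ticks at other changes, alignment ends kept. Sequences 1 and 3 carry all 6 they cover, and sequence 2 carries 4 of 5 and has 10 other changes.

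Outside the IGHV4-1 sequences, 0 of 23016 VQ-D5 rows, 0 of 9195 VQ-D1 rows and 0 of 342 VQ-D4 rows held an exact window of any of the 8 shared substitutions (limits of 0.0130% in VQ-D5 and 0.877% in VQ-D4, with none for VQ-D1, whose table names IGHG2B alone). How the 3 sequences came to be in the VQ-D5 library was not tested.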

How the data were processed

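The deposited clone tables give a count per clonotype as whole numbers, and its fraction of the table, per the file headers. The sources used here do not say if this counts reads or molecules. The deposited aligned tables give 1 row per sequence with AIRR columns and the V identity in percent, per the file headers. Per the submitters' processing notes the genome build was mm10, and the sources used here name no aligner version. The members, lists and thresholds were chosen with earlier results of these data known.

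V bases were read from the deposited alignments of rows with at least 50 V bases, with 10 bases left out at each end. Substitutions named were all shared ones, the 12 partial ones with the highest share, and pairs with phi of at least 0.5. Positions in other changes of VQ-D5 were named after their values were seen. Intervals are exact Clopper-Pearson 95% intervals, and the limit for a count of 0 was 3 counts of the total. Fisher's exact test used positions with at least 5 sequences in both libraries. With 1 library per line, p-values compare libraries. The calls of shared and partial substitutions and the test of position differences were tested on simulated data with known changes. Exact windows, the CDR3 search on both strands, the sets by position and by other bases off the clone, the product of shares for pairs, and the comparison of whole rows were chosen after seeing the data. Scripts ran in Python 3.11.15 with scipy 1.17.1 for the tests and intervals, pandas 2.3.3, matplotlib 3.10.9 and numpy 2.4.6. Light chain libraries were not used here.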

Additional observations from a re-analysis of the deposited data

How the results depend on the processing

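The number of shared substitutions was 8 with distinct sequences, with at least 100 or 200 V bases, at a share of at least 90% and with IGHV4-1 as the only V gene named. It was 9 with 0 bases left out at the ends, which adds C285T, and 6 with 20, which removes C20T and T278A because they lie in the bases left out. The number of partial substitutions depended on the threshold: 2 became 27 from 2%, 101 from 1% and 0 from 10%. It was 6 with distinct sequences, 5 with at least 200 V bases, 5 with 0 bases left out and 0 with 20. Complete carriage in VQ-D2 was 90.01% over distinct sequences, and, by alternatives chosen after seeing the data, 94.2% over sequences with the CDR3 and 98.4% with the germline base alone counted as missing. With at least 200 V bases it was 92.8%. Over the 8 shared substitutions the VQ-D2 shares ran from 95.6% to 99.8%, from 95.1% to 99.6% with distinct sequences and from 97.8% to 99.99% with exact windows, both chosen after seeing the data. The VQ-D5 share of carried substitutions was 93.3% with at least 200 V bases or distinct sequences and 94.1% with ends kept, and its share of aligned sequences was 0.0139% with at least 200 V bases and 0.0134% with IGHV4-1 as the only V gene. Neither derived line had a position past the threshold of Fisher's exact test with distinct sequences or with 20 bases left out. Depth limits the derived lines, with 11 sequences in 4935, and sequencing errors cannot be told apart from rare changes in 1 library. No paired analysis was possible because each line has 1 heavy chain library and the labels give no replicate numbers.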
